A study of Mus musculus with 12 samples.

Results

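The nuclear-encoded respiratory chain genes are the genes for the subunits of mitochondrial complexes I, III, IV and V that sit in the chromosomes of the nucleus. They were taken as the rows of the count table whose symbol begins with Ndufa, Ndufb, Ndufc, Ndufs, Ndufv, Uqcr, Cox4 to Cox8 or Atp5, without symbols that contain -ps. Of 107 matching symbols, 14 with -ps were left out, and 11 of the other 93 had fewer than 60 counts over the 12 libraries, which left 82 members among 55011 rows. By symbol, they comprised 37 complex I subunits, 8 complex I assembly factors with Ndufaf symbols, 8 complex III, 12 complex IV and 17 complex V genes. Ndufa4, now assigned to complex IV, was counted with complex I throughout. All 82 members passed the filter on low counts and were tested. The members just inside the minimum were Cox6b2 with 89 counts and Ndufaf6 with 369. Those just outside were Cox7a1 with 46, Cox6c2 with 28 and Cox4i2 with 19. The tissue-restricted forms Cox6a2, Cox8b, Cox8c and Cox7b2, and Ndufa4l2, a gene related to Ndufa4, had at most 8.

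RNA was sequenced from sorted Treg (regulatory T cells), which hold immune responses in check and depend on the transcription factor Foxp3. There were 4 groups of 3 libraries each: spleen ∆Foxp3, spleen WT, lung ∆Foxp3 and lung WT. All mice were C57BL/6 males aged 21 days, and every library came from 1000 cells sorted as TCRβ+ CD4+ GFP+ CD25+. The WT cells carried Foxp3.ires.GFP, in which the reporter is expressed from the intact Foxp3 locus. For the Foxp3-deleted cells the labels give ∆Foxp3.EGFP.iCre X R26.YFP in spleen and ∆Foxp3.ires.GFP in lung, while the protocol names ∆Foxp3.ires.GFP alone. Tissue and allele therefore cannot be told apart wherever ∆Foxp3 cells of lung and spleen are compared. By the labels, Foxp3 deletion also cannot be told apart from the iCre and YFP alleles when spleen ∆Foxp3 and spleen WT cells are compared. The same limit holds wherever the genotype difference in lung is set against that in spleen. Lungs were perfused and digested with collagenase and DNase before selection, and spleens were dissociated mechanically, so tissue and preparation cannot be told apart either. Whether the libraries of one group stem from different mice is not stated, so p-values refer to the spread of the libraries, which may be technical.

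The respiratory chain passes electrons from NADH through complex I, or from succinate through complex II, to coenzyme Q, then through complex III and cytochrome c to complex IV, which reduces oxygen. Complexes I, III and IV pump protons across the inner mitochondrial membrane, and complex V, the ATP synthase, lets them flow back to make ATP. Most subunits are encoded in the nucleus and imported, and a small set of core subunits is encoded in mitochondrial DNA. Each complex other than II is therefore a product of both genomes. Treg are known to rely on mitochondrial respiration for their suppressive function.

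The promoters of respiratory chain genes are known for binding sites of nuclear respiratory factor 1 (NRF1) and of GABP, an ETS family factor. RefSeq promoter windows (build GRCm38.p6, 250 bases before to 50 after the start of transcription) were found for 70 of the 82 members. The NRF1 motif, searched as GCGCNTGCG on both strands (N for any base), was in 24 of these 70 windows (34.3%), against 1924 of the 27025 genes with a window (7.12%). This form of the motif was chosen after counts of a longer form were seen. The ETS motif, searched as CTTCCG on both strands, was in 32 of the 70 (45.7%), against 5075 of all genes with a window (18.8%), and neither motif contains the other. By complex, the NRF1 motif was in 9 of 33 windows of complex I, 2 of 7 of its assembly factors, 3 of 5 of complex III, 1 of 10 of complex IV and 9 of 15 of complex V. The ETS motif was in 8, 6, 2, 6 and 10 of the same windows. Windows of 5 members that the results turn on are printed 5′ to 3′ on the strand of the gene, with NRF1 or ETS matches in capitals. Ndufa10 (chr1:92473709-92474008, minus strand) and Cox5a (chr9:57520982-57521281, plus strand) were the members called higher in ∆Foxp3 cells of both tissues under every setting tried. Uqcrc1 (chr9:108936398-108936697, plus strand) and Atp5g3 (chr2:73911277-73911576, minus strand) are a complex III and a complex V gene with NRF1 matches, which begin after position 250 and so lie past the start. Cox7a2l (chr17:83514284-83514583, minus strand) was the one member called lower in ∆Foxp3 cells of both tissues.
Ndufa10: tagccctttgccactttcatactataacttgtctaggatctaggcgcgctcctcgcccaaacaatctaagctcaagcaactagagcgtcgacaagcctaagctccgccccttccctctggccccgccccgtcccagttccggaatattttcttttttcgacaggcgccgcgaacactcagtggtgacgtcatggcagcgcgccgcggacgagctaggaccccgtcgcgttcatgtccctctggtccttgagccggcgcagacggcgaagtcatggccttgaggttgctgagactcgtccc
Cox5a: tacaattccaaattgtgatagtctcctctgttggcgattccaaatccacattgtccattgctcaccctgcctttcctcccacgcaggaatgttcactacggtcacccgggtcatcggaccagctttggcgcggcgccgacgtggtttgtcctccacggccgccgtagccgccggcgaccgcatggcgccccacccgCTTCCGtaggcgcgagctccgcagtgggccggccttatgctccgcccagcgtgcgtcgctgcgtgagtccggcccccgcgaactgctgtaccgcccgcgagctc
Uqcrc1: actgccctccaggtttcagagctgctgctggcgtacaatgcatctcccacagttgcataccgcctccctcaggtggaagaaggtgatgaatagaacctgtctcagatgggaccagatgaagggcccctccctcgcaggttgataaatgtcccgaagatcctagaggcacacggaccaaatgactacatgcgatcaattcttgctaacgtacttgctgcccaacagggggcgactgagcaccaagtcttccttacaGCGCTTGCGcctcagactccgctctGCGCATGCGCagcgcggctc
Atp5g3: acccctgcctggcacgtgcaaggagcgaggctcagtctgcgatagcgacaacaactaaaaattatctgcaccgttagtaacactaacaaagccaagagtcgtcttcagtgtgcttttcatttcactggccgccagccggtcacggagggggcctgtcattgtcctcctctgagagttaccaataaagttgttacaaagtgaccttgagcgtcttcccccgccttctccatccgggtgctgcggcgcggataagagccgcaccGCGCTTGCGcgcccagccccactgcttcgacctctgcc
Cox7a2l: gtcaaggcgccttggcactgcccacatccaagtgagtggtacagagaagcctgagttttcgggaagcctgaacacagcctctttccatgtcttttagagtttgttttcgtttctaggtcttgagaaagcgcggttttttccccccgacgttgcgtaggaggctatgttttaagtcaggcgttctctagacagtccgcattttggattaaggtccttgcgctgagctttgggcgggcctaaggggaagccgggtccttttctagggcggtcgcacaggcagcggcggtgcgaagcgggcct
The Ndufa10 and Cox7a2l windows held neither motif, the Cox5a window held 1 ETS match, the Atp5g3 window held 1 NRF1 match and the Uqcrc1 window held 3, of which a pair on opposite strands overlaps. Among members with a window, those called higher in spleen ∆Foxp3 cells had the NRF1 motif in 7 of 20 and the ETS motif in 8 of 20, and those not called higher had them in 17 and 24 of 50. For the lung calls the counts were 4 and 4 of 12, against 20 and 28 of 58. These shares are given as a description of the letters in the windows. The members with no window included Ndufa2, Ndufb9, Ndufs1, Ndufaf6, Uqcrb, Uqcrc2, Uqcrq, Cox4i1, Cox6c, Atp5a1 and Atp5mpl.

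The libraries held 3958892 to 9025150 counts, with 19618 to 23649 genes detected. Foxp3 itself had 159, 114 and 227 CPM (read counts scaled by library size and TMM factor) in spleen ∆Foxp3 libraries, against 1026, 991 and 1096 CPM in spleen WT libraries. In lung it had 469, 385 and 189 CPM in ∆Foxp3 libraries, against 1418, 1361 and 1328 CPM in WT libraries. The genotype groups did not overlap in either tissue, and the log2 fold changes were -2.64 ± 0.29 (SE) in spleen and -1.98 ± 0.29 in lung, with adjusted p = 2.93e-05 and 0.00041 by edgeR's quasi-likelihood test. Gene-level counts do not show which exons were read. Libraries differed within groups: spleen WT replicate 1 was the highest of its group in 75 of the 82 members and spleen ∆Foxp3 replicate 2 in 68. Spleen WT replicate 1 also stood apart by Gm10800 and Gm10801, repeat-containing genes with 0.112% of its counts against 0.743% to 2.94% in the other libraries. Proliferation genes moved with genotype: the summed level of 14 such genes was 5632, 7108 and 2876 CPM in spleen ∆Foxp3 libraries, against 859, 636 and 579 CPM in spleen WT. It was 4209, 6038 and 5562 CPM in lung ∆Foxp3 libraries, against 1851, 2094 and 2886 CPM in lung WT. Of the 14, all were called higher in spleen and 9 in lung, and the part of proliferation in the results was not tested. Of other cell types, B and plasma cell markers, carried mainly by Ighm, summed to 76.6 to 160 CPM in spleen ∆Foxp3 libraries against 1114 to 1274 CPM in spleen WT, and to 133 to 261 CPM in lung ∆Foxp3 against 1928 to 1969 CPM in lung WT. Of these 6 markers, 3 were tested and 1 was called lower in each tissue. The erythroid list of 6 genes summed to 97.4, 1.19 and 403 CPM in lung ∆Foxp3 libraries and to 3540, 4901 and 1974 CPM in lung WT, with 3 genes called lower. It summed to 397, 10.8 and 14.8 CPM in spleen ∆Foxp3 and to 16.6, 9.11 and 9.10 CPM in spleen WT, with 1 gene called higher. Endothelial markers summed to 89.7 to 146 CPM in spleen ∆Foxp3 libraries against 269 to 328 CPM in spleen WT, and to 112 to 119 CPM in lung ∆Foxp3 against 283 to 330 CPM in lung WT, with 1 of 2 tested called lower in each tissue. Epithelial markers summed to 11.3 to 15.9 CPM in spleen ∆Foxp3 against 21.4 to 40.7 CPM in spleen WT, and to 12.3 to 19.2 CPM in lung ∆Foxp3 against 37.8 to 206 CPM in lung WT, with 1 and 3 of 4 tested called lower in spleen and in lung. The general T cell markers summed to 3753 to 4103 CPM in spleen ∆Foxp3 against 4578 to 5396 CPM in spleen WT, and to 3709 to 4190 CPM in lung ∆Foxp3 against 4697 to 4838 CPM in lung WT. Of these 6 T cell genes, 4 were called lower and 1 higher in spleen, and 3 lower and 1 higher in lung. Markers of CD8 T cells, of monocytes and macrophages and of fibroblasts gave no call in either tissue by edgeR. No marker of any list was at 0 in every library, and their part in the results was not tested. In such bulk libraries fewer cells of a type and less RNA per cell cannot be told apart.

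The share of all counts that fell in the 82 members was 1.63%, 1.80% and 1.49% in spleen ∆Foxp3 libraries, against 1.57%, 1.26% and 1.21% in spleen WT. The spleen groups overlapped because of spleen WT replicate 1. In lung the share was 1.42%, 1.59% and 1.49% in ∆Foxp3 libraries, against 1.12%, 1.16% and 1.29% in WT, and the lung groups did not overlap. Complex V took the largest share in every group, with means of 0.624% ± 0.105 (SD, n = 3) in spleen ∆Foxp3, 0.481% ± 0.0529 in spleen WT, 0.600% ± 0.0376 in lung ∆Foxp3 and 0.456% ± 0.0344 in lung WT. The Ndufaf assembly factors took the smallest, at 0.0226% ± 0.00293, 0.0200% ± 0.00234, 0.0218% ± 0.00117 and 0.0146% ± 0.00104 in the same groups.

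**Figure D1:**
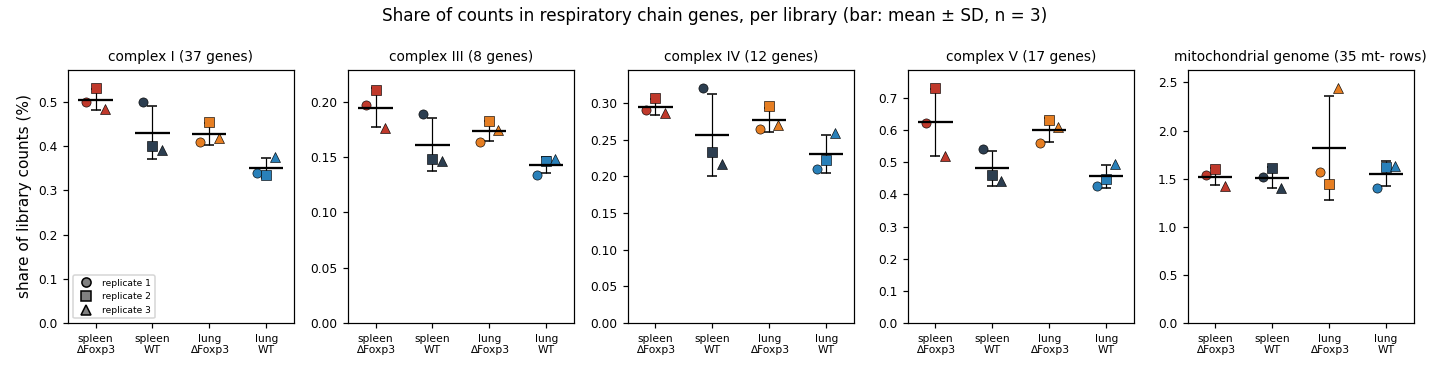
Share of all counts in percent (vertical axis) taken by the genes of complexes I, III, IV and V and by 35 mitochondrially encoded (mt-) rows, 1 panel each, with the 4 groups along the horizontal axis. Points are libraries and bars are means ± SD (n = 3). The lung ∆Foxp3 libraries lie above the lung WT libraries in the 4 complex panels. Spleen WT replicate 1 lies within or above the spleen ∆Foxp3 range for complexes I, III, IV and V. The share of the mt- rows is uncertain, since much of the sequence of some of them also occurs in other genes.

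In spleen, 23 of the 82 members (28.0%) rose in ∆Foxp3 cells and 1 fell, at an adjusted p under 0.05, where 14.1% of the 13295 genes tested were called higher and 12.5% lower. The log2 fold change was above 0 for 69 of the 82 members, against 6484 of all 13295 genes, and its median was 0.26, against -0.02 over all genes. Those that rose included 11 of 37 complex I subunits, 3 of 8 complex III genes, 3 of 12 complex IV genes and 6 of 17 complex V genes, and no Ndufaf assembly factor passed edgeR's test, with 1 at an unadjusted p under 0.05, 0 by DESeq2 and 1 by limma. The median log2 fold change was 0.25 for complex I, 0.15 for the Ndufaf factors, 0.43 for complex III, 0.32 for complex IV and 0.29 for complex V. The median member was 1.20-fold higher in ∆Foxp3 cells, with a median SE of 0.19 on the log2 scale, and 1 member passed a log2 fold change of 1. Single libraries moved these counts: 39 members were called higher without spleen WT replicate 1, but 4 without spleen WT replicate 2, 9 without spleen WT replicate 3 and 5 without spleen ∆Foxp3 replicate 2. Without spleen WT replicate 1 the medians were 0.44, 0.37, 0.63, 0.58 and 0.56 for the same lists, and without spleen ∆Foxp3 replicate 2 they were 0.11, -0.01, 0.33, 0.20 and 0.20.

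The groups did not overlap for 25 members in spleen, of which 22 were higher and 3 lower in every ∆Foxp3 library, against 18.6% and 19.5% of all genes.

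In lung, 14 of 82 members (17.1%) rose in ∆Foxp3 cells and 1 fell, where 9.74% of all genes were called higher and 10.5% lower. The log2 fold change was above 0 for 73 of 82 members, against 6524 of all genes, and its median was 0.38, against -0.01 over all genes. Those that rose were 6 complex I subunits, 1 assembly factor, 2 complex III genes, 1 complex IV gene and 4 complex V genes. The median log2 fold change was 0.36 for complex I, 0.58 for the Ndufaf factors, 0.41 for complex III, 0.35 for complex IV and 0.32 for complex V. The median member was 1.30-fold higher in ∆Foxp3 cells, and 3 members passed a log2 fold change of 1. A larger number had no overlap between the groups, with 56 members higher and 2 lower in every lung ∆Foxp3 library, against 23.2% and 22.2% of all genes. The count called higher was 31 without spleen WT replicate 1, 5 without lung WT replicate 1, 4 without lung WT replicate 2, 4 without lung ∆Foxp3 replicate 2 and 5 without lung ∆Foxp3 replicate 3.

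**Figure D2:**
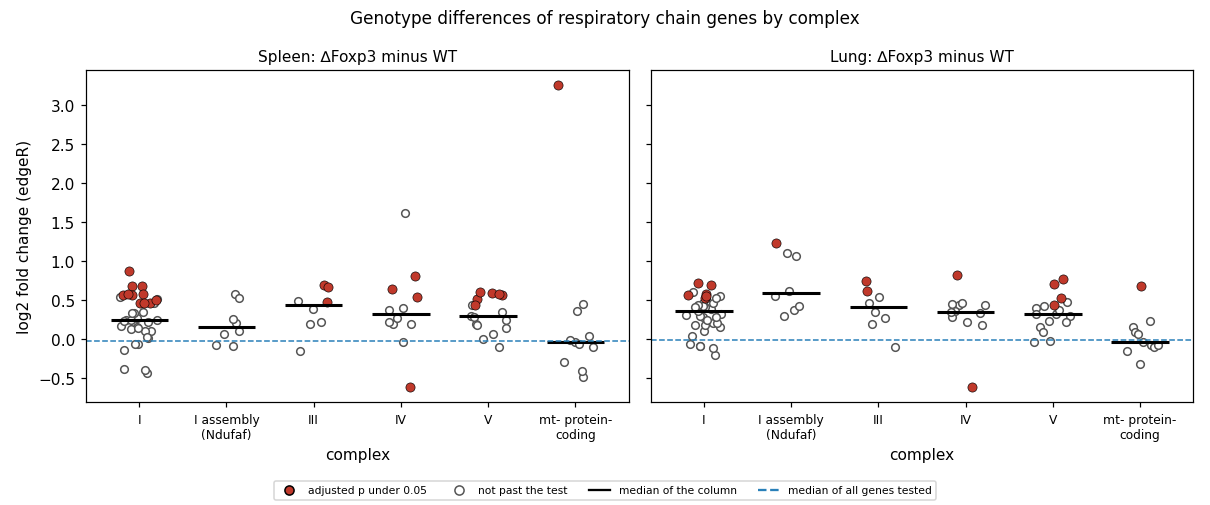
Log2 fold change of ∆Foxp3 over WT (vertical axis) for every member, by complex along the horizontal axis, in spleen (left) and lung (right); points are genes, filled where the adjusted p was under 0.05, bars are medians and the dashed line is the median of all genes tested. The medians lie above 0 for every complex in both tissues, from 0.15 to 0.58, and that of the mitochondrially encoded rows is -0.04, of which 6 of 11 share over 50% of their windows with another gene.

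Complex I is entered by NADH at the flavoprotein Ndufv1. It works with Ndufv2, Ndufs3 and iron-sulfur subunits such as Ndufs1, Ndufs7 and Ndufs8 in the conserved core. Ndufv1 had 206, 221 and 228 CPM in spleen ∆Foxp3 libraries, against 171, 119 and 147 CPM in spleen WT. Those groups did not overlap, and the log2 fold change was 0.58 ± 0.15 with adjusted p = 0.0108 (edgeR). It was 0.43 ± 0.15 with adjusted p = 0.0567 in lung, where ∆Foxp3 libraries had 177, 210 and 211 CPM and WT libraries 161, 138 and 143 CPM. The spleen call was lost without spleen WT replicate 2, at adjusted p = 0.0568. Ndufs8, an iron-sulfur subunit on the electron path toward coenzyme Q, rose by 0.50 ± 0.15 in spleen, and Ndufv2 by 0.46 ± 0.15, with adjusted p of 0.0217 and 0.0338 (edgeR). In lung they had 0.43 and 0.41 and did not pass the test (adjusted p = 0.0577 and 0.0686). Both calls were lost without spleen WT replicate 2, spleen WT replicate 3 or spleen ∆Foxp3 replicate 2, and that of Ndufv2 also without spleen ∆Foxp3 replicate 1. Ndufs1, the largest iron-sulfur subunit, and Ndufs3 had log2 fold changes of 0.15 and 0.17 in spleen (adjusted p = 0.54 and 0.479) and 0.21 and 0.20 in lung (adjusted p = 0.394 and 0.416).

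Ndufs7, the iron-sulfur subunit next to coenzyme Q, had a log2 fold change below 0 in spleen and did not pass the test. It had 113, 148 and 133 CPM in spleen ∆Foxp3 libraries, against 219, 154 and 148 CPM in spleen WT. Its highest spleen ∆Foxp3 library lay just above the lowest spleen WT library, and the difference of -0.40 ± 0.16 had adjusted p = 0.0853. In lung the values were 122, 130 and 123 CPM in ∆Foxp3 libraries and 114, 104 and 112 CPM in WT libraries, with no overlap and a log2 fold change of 0.18 ± 0.17 (adjusted p = 0.475).

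Accessory subunits surround the core and are needed for its assembly and stability. Ndufa10 (GRCm38 chr1:92439010-92473860, minus strand), an accessory subunit of the membrane arm, had the smallest adjusted p of all members in both tissues. Spleen ∆Foxp3 libraries had 229, 233 and 260 CPM, against 143, 124 and 129 CPM in spleen WT. Lung ∆Foxp3 libraries had 199, 241 and 213 CPM, against 124, 135 and 146 CPM in lung WT. All 6 ∆Foxp3 libraries were above all 6 WT libraries, and the log2 fold changes were 0.87 ± 0.13 in spleen and 0.69 ± 0.13 in lung, with adjusted p = 0.000289 and 0.00271 (edgeR). Leaving out each library in turn gave adjusted p of at most 0.00267 in spleen and 0.0153 in lung.

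Ndufb9 (chr15:58933756-58939488, plus strand) and Ndufb8, accessory subunits of the membrane arm, also rose in both tissues. Ndufb9 had 173, 175 and 161 CPM in spleen ∆Foxp3 libraries, against 131, 113 and 102 CPM in spleen WT. Its lung levels were 113, 138 and 115 CPM in ∆Foxp3 libraries, against 77.3, 81.6 and 86.8 CPM in WT. The groups stood apart in both tissues, at 0.56 ± 0.14 in spleen (adjusted p = 0.0098) and 0.57 ± 0.14 in lung (adjusted p = 0.0122). The spleen call held without each library, and the lung call was lost without lung ∆Foxp3 replicate 2, at adjusted p = 0.0563. Ndufb8 differed by 0.67 ± 0.19 in spleen and 0.56 in lung (adjusted p = 0.0148 and 0.0483). Ndufa12, an accessory subunit of the arm that reaches into the matrix, had 64.5, 88.5 and 70.0 CPM in spleen ∆Foxp3 libraries, against 54.6, 41.6 and 42.7 CPM in spleen WT. With no overlap, it rose by 0.68 ± 0.18 (adjusted p = 0.0125). In lung it had 57.2, 71.8 and 64.1 CPM in ∆Foxp3 libraries, against 43.1, 43.3 and 47.6 CPM in WT, with 0.53 and adjusted p = 0.0552. The other accessory subunits called higher were Ndufc2 in both tissues (0.58 and 0.55), Ndufa1 and Ndufa8 in spleen (0.57 and 0.46), and Ndufa11 and Ndufb6 in lung (0.52 and 0.72 ± 0.21). In spleen the Ndufb8, Ndufc2, Ndufa1 and Ndufa8 calls were lost without spleen WT replicate 2, spleen WT replicate 3 or spleen ∆Foxp3 replicate 2, and the Ndufa12 call without spleen WT replicate 2 or spleen ∆Foxp3 replicate 2. In lung the Ndufb8, Ndufc2, Ndufa11 and Ndufb6 calls were lost without lung WT replicate 1, lung WT replicate 2, lung ∆Foxp3 replicate 2 or lung ∆Foxp3 replicate 3. Further libraries ended single calls when left out: spleen ∆Foxp3 replicate 1 those of Ndufa8 and Ndufc2 in spleen, lung WT replicate 2 and lung ∆Foxp3 replicate 2 that of Ndufa8, lung WT replicate 3 those of Ndufb8 and Ndufc2 in lung, spleen ∆Foxp3 replicate 1 those of Ndufb8, Ndufc2 and Ndufa11 in lung, spleen WT replicate 2 those of Ndufb8 and Ndufa11 in lung, and spleen WT replicate 3 those of Ndufc2 and Ndufa11 in lung. Ndufa4, named for complex I but now assigned to complex IV, had 0.25 in spleen and 0.28 in lung and was not called. It was counted with complex I by its symbol, and its spleen value was the complex I median there.

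Of the Ndufaf factors, which help to build complex I and leave the finished enzyme, Ndufaf4 (chr4:24898083-24905001, plus strand) was called in lung. It had 28.8, 35.7 and 35.1 CPM in lung ∆Foxp3 libraries, against 17.2, 9.85 and 15.1 CPM in lung WT. All ∆Foxp3 values in lung were above all WT values, with a log2 fold change of 1.23 ± 0.29 and adjusted p = 0.00859 (edgeR), and at most 0.0456 without any single library. In spleen the values were 22.7, 41.7 and 32.0 CPM in ∆Foxp3 libraries and 39.2, 25.7 and 24.8 CPM in WT libraries. These overlapped, with 0.10 ± 0.28 and adjusted p = 0.832. The mean of all 8 Ndufaf factors was lowest in lung WT among the 4 groups. Ndufaf2 and Ndufaf6 had log2 fold changes of 1.06 ± 0.37 and 1.10 ± 0.54 in lung and did not pass the test (adjusted p = 0.0555 and 0.17).

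Complex III moves electrons from coenzyme Q to cytochrome c. Uqcr10, a small subunit that sits beside the Rieske protein, rose in both tissues. It had 129, 173 and 114 CPM in spleen ∆Foxp3 libraries, against 115, 66.8 and 75.5 CPM in spleen WT. Its lung levels were 120, 136 and 133 CPM in ∆Foxp3 libraries, against 79.0, 69.5 and 82.8 CPM in WT. The spleen groups overlapped at spleen WT replicate 1 and the lung groups did not, and the log2 fold changes were 0.69 ± 0.21 and 0.75 ± 0.21 (adjusted p = 0.0223 and 0.0203). The Rieske iron-sulfur protein itself, Uqcrfs1, had 218, 278 and 251 CPM in lung ∆Foxp3 libraries, against 150, 159 and 178 CPM in lung WT. It rose in lung without overlap, by 0.62 ± 0.19 (adjusted p = 0.0331), and had 0.39 with adjusted p = 0.148 in spleen. The core proteins are Uqcrc1 and Uqcrc2, and the first had 639, 716 and 523 CPM in spleen ∆Foxp3 libraries, against 477, 431 and 441 CPM in spleen WT. Uqcrc1 rose in spleen by 0.48 ± 0.13 (adjusted p = 0.0158), had 0.27 in lung (adjusted p = 0.174), and Uqcrc2 had 0.19 and 0.20. Uqcr11, a small subunit, rose by 0.67 in spleen (adjusted p = 0.0153) and had 0.54 in lung (adjusted p = 0.0568). Uqcrh, the hinge protein that docks cytochrome c, had -0.15 in spleen and -0.11 in lung and was not called. The spleen calls were lost without spleen WT replicate 2 or spleen ∆Foxp3 replicate 2, and for Uqcr10 and Uqcr11 also without spleen WT replicate 3. The lung calls were lost without lung WT replicate 1, lung WT replicate 2, lung ∆Foxp3 replicate 2 or lung ∆Foxp3 replicate 3.

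Complex IV passes electrons to oxygen at a core encoded in mitochondrial DNA, around which the nuclear subunits sit. Cox5a (chr9:57521274-57532426, plus strand) and Cox5b (chr1:36691449-36693681, plus strand) bind the core on its matrix side. Cox5a had 186, 245 and 164 CPM in spleen ∆Foxp3 libraries, against 143, 109 and 87.0 CPM in spleen WT. In lung it had 197, 214 and 206 CPM in ∆Foxp3 libraries, against 111, 103 and 137 CPM in WT. Every ∆Foxp3 library was above every WT library, and the log2 fold changes were 0.81 ± 0.19 and 0.81 ± 0.20 (adjusted p = 0.0066 and 0.00917). Both calls held when any single library was left out, at adjusted p of at most 0.0331 in spleen and 0.0496 in lung. Cox5b had 249, 269 and 228 CPM in spleen ∆Foxp3 libraries, against 179, 154 and 145 CPM in spleen WT. It rose in spleen by 0.64 ± 0.15 (adjusted p = 0.0058, and at most 0.0287 without any single library), and had 0.44 with adjusted p = 0.0522 in lung. Cox4i1, the largest nuclear subunit, had 0.19 in spleen and 0.29 in lung (adjusted p = 0.445 and 0.264). Of its tissue-restricted counterpart Cox4i2 there were 19 counts in all.

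Complex IV has several subunits with alternative forms. Cox8a, the general form of subunit VIII, had 278, 342 and 271 CPM in spleen ∆Foxp3 libraries, against 267, 181 and 163 CPM in spleen WT. Its groups did not overlap, with 0.54 and adjusted p = 0.0431, a call lost without spleen WT replicate 2 or 3, spleen ∆Foxp3 replicate 1 or 2, or lung WT replicate 2. Cox6a1, Cox6b1, Cox6c, Cox7a2 and Cox7b had log2 fold changes of 0.39, 0.26, 0.22, 0.38 and 0.19 in spleen and 0.35, 0.22, 0.34, 0.47 and 0.33 in lung, and none was called. Cox7c had -0.04 in spleen (adjusted p = 0.923) and 0.43 in lung (adjusted p = 0.163). Cox6b2, known as the testis form of subunit VIb, was near the floor of 3 counts with 3.93, 2.16 and 2.44 CPM in spleen ∆Foxp3 libraries and 0.891, 1.07 and 0.772 CPM in spleen WT. Its spleen values did not overlap, and the difference of 1.62 ± 0.72 had adjusted p = 0.11.

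Cox7a2l (chr17:83501918-83517330, minus strand) is a protein related to Cox7a2 that is known for joining complexes III and IV into supercomplexes. In C57BL/6 mice, the strain used here, it is known as a short form, and supercomplexes were not measured. Cox7a2l had 238, 182 and 265 CPM in spleen ∆Foxp3 libraries, against 438, 322 and 288 CPM in spleen WT. Its lung levels were 239, 215 and 194 CPM in ∆Foxp3 libraries, against 332, 347 and 315 CPM in WT. All ∆Foxp3 values were below all WT values of the same tissue, and the log2 fold changes were -0.61 ± 0.17 in spleen and -0.62 ± 0.18 in lung, with adjusted p = 0.0175 and 0.0232 (edgeR). The spleen call was lost without spleen WT replicate 1 (-0.38, adjusted p = 0.0997), spleen ∆Foxp3 replicate 1 (adjusted p = 0.052) or spleen ∆Foxp3 replicate 2 (adjusted p = 0.0716). The lung call was lost without each lung WT replicate or without lung ∆Foxp3 replicate 2 or 3, with log2 fold changes of -0.65 to -0.51 over the libraries left out and adjusted p of at most 0.129.

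**Figure D3:**
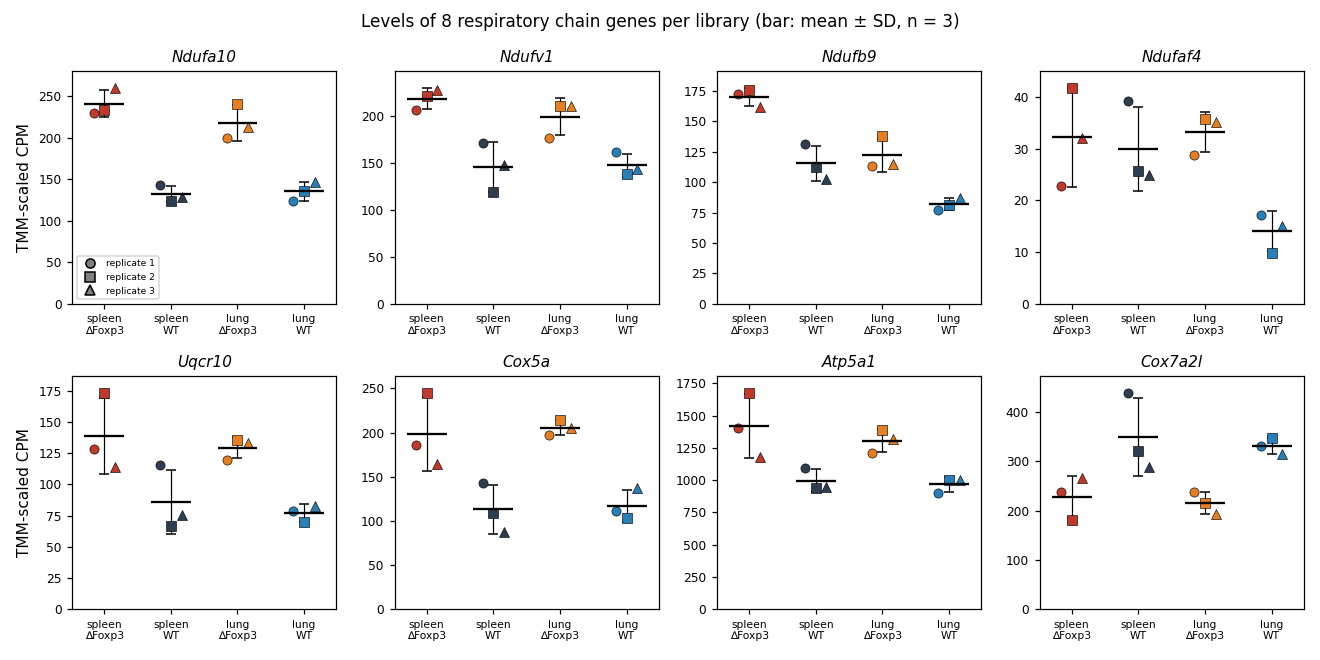
TMM-normalised CPM (vertical axis) of members described in the text, 1 panel for each of 8 genes, with the 4 groups along the horizontal axis; points are libraries and bars are means ± SD (n = 3). Ndufa10 has 199 to 260 CPM in the ∆Foxp3 libraries and 124 to 146 CPM in the WT libraries, and Cox7a2l is lower in the ∆Foxp3 libraries of both tissues.

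Complex V has a catalytic head of alpha, beta, gamma, delta and epsilon subunits, a ring of c subunits that turns with the proton flow, a peripheral stalk that holds the head still, and small membrane subunits. The alpha subunit gene Atp5a1 had 1403, 1672 and 1177 CPM in spleen ∆Foxp3 libraries, against 1096, 938 and 949 CPM in spleen WT. In lung it had 1210, 1387 and 1315 CPM in ∆Foxp3 libraries, against 901, 997 and 1003 CPM in WT. With no overlap in either tissue, Atp5a1 rose by 0.51 ± 0.14 in spleen and 0.43 ± 0.14 in lung (adjusted p = 0.0131 and 0.0396). Atp5b, the beta subunit that makes ATP, had 1528, 2072 and 1101 CPM in spleen ∆Foxp3 libraries, against 1104, 1076 and 999 CPM in spleen WT. The lowest ∆Foxp3 library of Atp5b was just under the highest WT library, and the difference of 0.56 had adjusted p = 0.0345 in spleen, against 0.48 with adjusted p = 0.08 in lung. Atp5c1, the gamma subunit that forms the rotating shaft, rose by 0.43 in spleen (adjusted p = 0.038) and had 0.39 in lung (adjusted p = 0.0685). Of the 5 head genes, 3 rose in spleen and 1 in lung, where 14.1% and 9.74% of all genes were called higher.

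The c ring is made by 3 genes, Atp5g1, Atp5g2 and Atp5g3, that encode the same mature protein, and had the largest median of the parts of complex V, at 0.58 in spleen and 0.70 in lung. Atp5g1 had 77.4, 124 and 87.1 CPM in spleen ∆Foxp3 libraries, against 72.1, 60.03 and 59.1 CPM in spleen WT. Its lung levels were 69.2, 94.8 and 85.3 CPM in ∆Foxp3 libraries, against 51.9, 43.5 and 51.0 CPM in WT. The groups stood apart in both tissues, at 0.59 ± 0.19 and 0.77 ± 0.20 (adjusted p = 0.0364 and 0.0141). Atp5g3 had 306, 371 and 394 CPM in lung ∆Foxp3 libraries, against 201, 209 and 248 CPM in lung WT, and rose by 0.70 ± 0.18 there (adjusted p = 0.0143). In spleen its 351, 457 and 303 CPM in ∆Foxp3 libraries met 304, 226 and 213 CPM in WT libraries, with a slight overlap, 0.58 ± 0.18 and adjusted p = 0.0286. Atp5g2 had 0.25 and 0.29 and was not called.

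The peripheral stalk subunit b, Atp5pb, had 507, 577 and 372 CPM in spleen ∆Foxp3 libraries, against 366, 314 and 283 CPM in spleen WT. In lung it had 426, 436 and 460 CPM in ∆Foxp3 libraries, against 300, 274 and 344 CPM in WT. Atp5pb rose in both tissues with no overlap, by 0.60 ± 0.16 in spleen and 0.53 ± 0.16 in lung (adjusted p = 0.0148 and 0.0361), and of the 4 stalk genes it was the 1 called. Of 5 accessory membrane subunits none was called by edgeR in either tissue, with 0 and 0 at an unadjusted p under 0.05, 0 and 0 by DESeq2, 1 and 0 by limma, and median log2 fold changes of 0.20 in spleen and 0.21 in lung. The ATPase inhibitor Atpif1, which is not a member, had 0.47 in spleen and 0.33 in lung (adjusted p = 0.115 and 0.306). The spleen calls of complex V were all lost without spleen WT replicate 2 or spleen ∆Foxp3 replicate 2, and all but that of Atp5a1 without spleen WT replicate 3, with those of Atp5b and Atp5c1 also lost without spleen ∆Foxp3 replicate 1. In lung all 4 were lost without lung WT replicate 2, those of Atp5a1, Atp5g3 and Atp5pb without lung WT replicate 1 or lung ∆Foxp3 replicate 3, and those of Atp5a1, Atp5g1 and Atp5pb without lung ∆Foxp3 replicate 2. The Atp5a1 call in lung was also lost without spleen WT replicate 2 or lung WT replicate 3.

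Whether the genotype difference was alike in both tissues was asked by comparing the calls and by the interaction, the lung genotype difference minus the spleen genotype difference. Between them, 10 members were called higher in both tissues, which is 43.5% of the 23 spleen calls and 71.4% of the 14 lung calls. Over all genes, 909 were called higher in both tissues, which is 48.4% of the spleen calls and 70.2% of the lung calls, so the members' shares were close to those of all genes. These comparisons share no library, but their tests share 1 fit and its estimate of spread per gene, so the calls are not independent. The 10 members were Ndufa10, Ndufb8, Ndufb9, Ndufc2, Uqcr10, Cox5a, Atp5a1, Atp5g1, Atp5g3 and Atp5pb. A further 13 were called in spleen and 4, Ndufa11, Ndufb6, Ndufaf4 and Uqcrfs1, in lung. The fold change was above 0 in both tissues for 68 of 82 members (82.9%), against 4995 of all genes (37.6%), and below 0 in both for 8 members. No member was called in the interaction by edgeR, where 0.143% of all genes were called higher and 0.782% lower. At an unadjusted p under 0.05 there were 2, Ndufaf4 with 1.13 ± 0.40 (adjusted p = 0.317) and Ndufs7 with 0.58 ± 0.23 (adjusted p = 0.414), and DESeq2 and limma called 0 and 0. Next by adjusted p were Ndufa11 with 0.42 ± 0.24 and Cox7c with 0.47 ± 0.29 (adjusted p = 0.688 and 0.725). A gene called in 1 tissue is therefore not shown to differ between tissues.

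**Figure D4:**
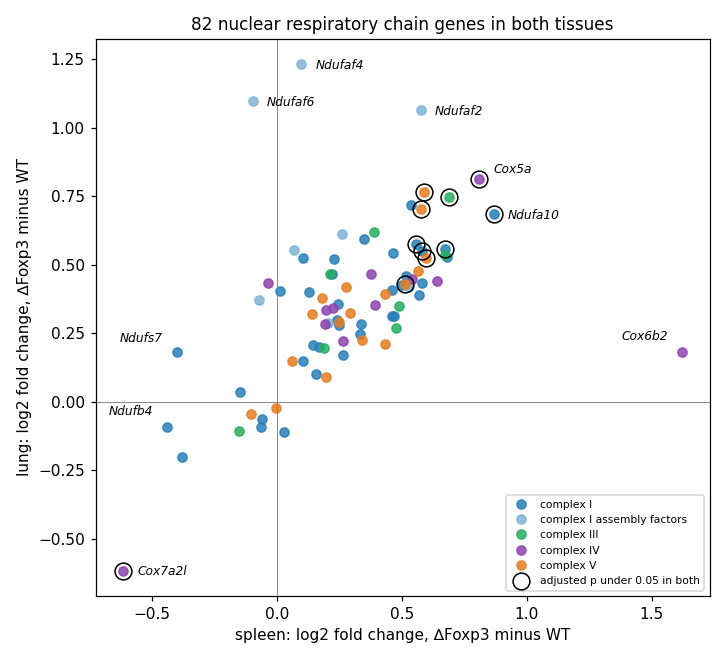
Log2 fold change of ∆Foxp3 over WT in lung (vertical axis) against that in spleen (horizontal axis) for the 82 members, coloured by complex, with rings around the members that passed the test in both tissues. Of the 82 points, 68 lie above 0 on both axes, and Cox7a2l lies at -0.61 and -0.62.

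The mitochondrially encoded subunits, which assemble with these nuclear subunits, were read beside them. There were 35 rows with mt- symbols, and 11 of the 13 protein-coding ones were tested. Their median log2 fold change was -0.04 in both tissues. For 6 of the 11, mt-Atp6, mt-Co1, mt-Co2, mt-Co3, mt-Nd3 and mt-Nd4, over 50% of the 38-base windows occur in another gene. This makes their values, this median and the share of counts in mt- rows uncertain. The other 5, mt-Nd1, mt-Nd2, mt-Nd5, mt-Nd6 and mt-Cytb, had log2 fold changes of 0.36, -0.49, -0.02, -0.07 and -0.30 in spleen and 0.68, -0.15, -0.04, -0.07 and -0.07 in lung. Lung ∆Foxp3 replicate 3 stood apart, with 2.44% of its counts in mt- rows against 1.40% to 1.63% in the other libraries, and it was also the highest library for mt-Co1, mt-Cytb and mt-Nd5. mt-Nd1, a membrane subunit of complex I, had 6366, 6314 and 9883 CPM in lung ∆Foxp3 libraries, against 4193, 4906 and 4980 CPM in lung WT. It rose in lung without overlap, by 0.68 ± 0.17 (adjusted p = 0.0127, edgeR). The call was lost without lung WT replicate 1 (adjusted p = 0.055) or lung ∆Foxp3 replicate 3 (0.47, adjusted p = 0.0673). In spleen mt-Nd1 had 5810, 6774 and 4905 CPM in ∆Foxp3 libraries, against 4781, 4739 and 4097 CPM in WT, with 0.36 ± 0.17 and adjusted p = 0.138. The log2 fold change of mt-Co1 of complex IV was 0.03 in spleen and 0.09 in lung, with 58.4% of windows shared. For mt-Nd4 of complex I it was -0.41 and -0.10 with 62.6% shared, and neither gene was called. mt-Nd3 rose in spleen by 3.25 ± 0.58 (adjusted p = 0.000848), at 4.81, 4.55 and 3.73 CPM in ∆Foxp3 libraries and 0.334, 0.536 and 0.463 CPM in WT libraries. These levels are low, and those of spleen WT are near the floor of 3 counts. Lung libraries had 6.23, 3.57 and 9.83 CPM in ∆Foxp3 cells and 5.17, 7.77 and 5.80 CPM in WT cells, so spleen WT was the low group. In WT cells mt-Nd3 was higher in lung than in spleen by 3.77 ± 0.58 (adjusted p = 0.00224, edgeR). Since 98.1% of the 38-base windows of mt-Nd3 occur in another gene, Gm28438, its value is uncertain. The same holds for mt-Co2, mt-Co3 and mt-Atp6, for which 99.5% to 100% of windows were shared, whereas mt-Nd1 shared 0% and mt-Cytb 1.99%.

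**Figure D5:**
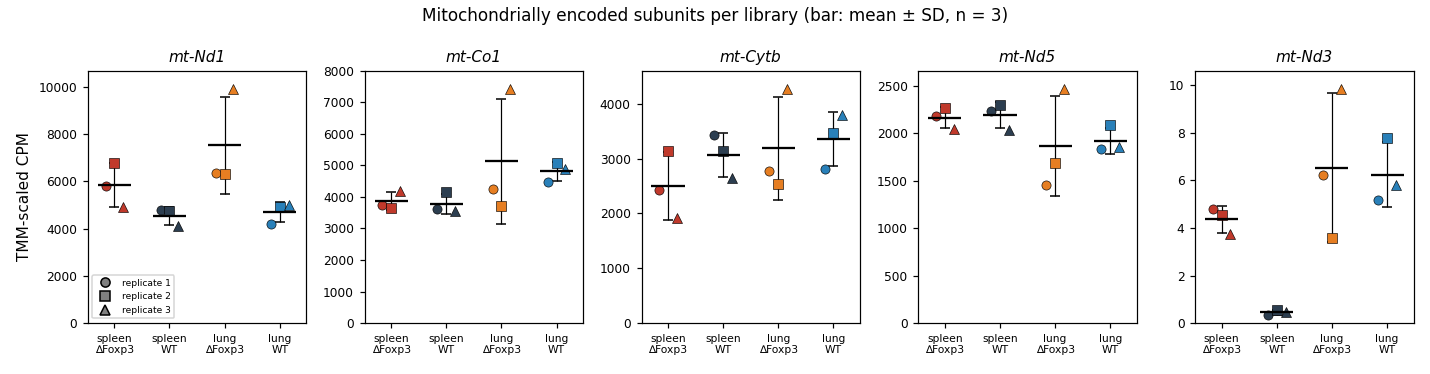
TMM-normalised CPM (vertical axis) of 5 mitochondrially encoded subunits, 1 panel each, with the 4 groups along the horizontal axis; points are libraries and bars are means ± SD (n = 3). The levels of mt-Nd1 in lung ∆Foxp3 libraries run from 6314 to 9883 CPM, above the 4193 to 4980 CPM of lung WT.

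Between tissues few members were called. In WT cells, 2 members were lower in lung than in spleen and none was called higher by edgeR, DESeq2 or limma, where 1.03% of all genes were called lower and 3.1% higher. Ndufs7 was lower in lung WT by -0.66 ± 0.17 (adjusted p = 0.0359) and Ndufaf4 by -1.09 ± 0.29 (adjusted p = 0.0492). For Ndufs7 the lung WT values of 114, 104 and 112 CPM were all below the spleen WT values of 219, 154 and 148 CPM. For Ndufaf4 the lung WT values of 17.2, 9.85 and 15.1 CPM were also all below 39.2, 25.7 and 24.8 CPM in spleen WT. The call of Ndufs7 was kept only without spleen WT replicate 3, spleen ∆Foxp3 replicate 2 or spleen ∆Foxp3 replicate 3, and that of Ndufaf4 only without spleen ∆Foxp3 replicate 2 or 3, among the 12 fits with a library left out, with adjusted p of up to 0.173 and 0.212. The median log2 fold change over the members was -0.18, against -0.00117 over all genes. It was below 0 for 70 of 82 members, against 6674 of all 13295 genes, and 11 members had an unadjusted p under 0.05. The mean log2 CPM of the members was 6.92, 6.52 and 6.46 in spleen WT libraries, against 6.36, 6.41 and 6.55 in lung WT. These groups overlapped, and spleen WT replicate 1 was the highest library. In 13 members every lung WT library was below every spleen WT library and in 1 it was above, against 12.4% and 13.2% of all genes. Between lung ∆Foxp3 and spleen ∆Foxp3 cells edgeR called no member, against 0.549% of all genes higher and 0.173% lower. At an unadjusted p under 0.05 there were 2, and DESeq2 and limma called 0 and 0. The median was -0.13 with 69 of 82 below 0, against -0.0232 with 6998 of 13295 below 0 over all genes. In every lung ∆Foxp3 library 10 members were lower and none was higher, against 7.41% and 8.07% of all genes. The mean log2 CPM of the members overlapped, with 6.90, 7.13 and 6.77 in spleen ∆Foxp3 libraries and 6.71, 6.89 and 6.81 in lung ∆Foxp3. Ordering the 4 group means, spleen ∆Foxp3 was the highest for 59 of 82 members, lung ∆Foxp3 for 13, spleen WT for 10 and lung WT for none. Lung WT was the lowest for 60 members, spleen WT for 13 and lung ∆Foxp3 for 9. Single libraries weigh on this order, since spleen ∆Foxp3 replicate 2 was the highest of its group in 68 members and spleen WT replicate 1 in 75. The order without them was not tested.

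Other genes of mitochondrial energy metabolism were read as lists, beside the 14.1% of all genes called higher in spleen and the 9.74% in lung. In complex II, which feeds electrons from succinate, 2 of 4 genes rose in spleen and none in lung. Sdhb, its iron-sulfur subunit, had 350, 444 and 334 CPM in spleen ∆Foxp3 libraries, against 273, 209 and 211 CPM in spleen WT. The groups did not overlap, with 0.70 ± 0.16 and adjusted p = 0.00491, and Sdhd, a membrane anchor, rose by 0.65 (adjusted p = 0.0116), a call lost without spleen WT replicate 2. In lung 1 complex II gene had an unadjusted p under 0.05, DESeq2 called 0 and limma 1, and Sdha, the flavoprotein, had 0.18 in spleen and 0.15 in lung. Of 14 genes of cytochrome c and coenzyme Q synthesis, 4 rose in spleen and 3 in lung by edgeR, and none was called lower by edgeR or limma, while DESeq2 called 1 lower in lung. Coq7, a hydroxylase of coenzyme Q synthesis, had 32.6, 37.4 and 18.7 CPM in spleen ∆Foxp3 libraries, against 14.4, 9.29 and 3.70 CPM in spleen WT. It rose by 1.68 ± 0.42 (adjusted p = 0.00911) with no overlap. Coq3, a methyltransferase of the same pathway, rose by 1.33 in spleen and 1.51 in lung (adjusted p = 0.0164 and 0.0124). Its calls were lost without spleen ∆Foxp3 replicate 2 in spleen and lung WT replicate 2 in lung. Cycs, cytochrome c itself, rose by 1.03 in lung (adjusted p = 0.0331), a call lost without any single lung WT replicate or lung ∆Foxp3 replicate 2 or 3.

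Of the tricarboxylic acid cycle, 4 of 17 genes rose in each tissue by edgeR, and edgeR, DESeq2 and limma called none lower. Fh1, fumarate hydratase, had 132, 178 and 105 CPM in spleen ∆Foxp3 libraries, against 60.4, 57.0 and 61.7 CPM in spleen WT. Its lung levels were 89.3, 127 and 140 CPM in ∆Foxp3 libraries, against 54.5, 83.7 and 71.2 CPM in WT. No values overlapped, and it rose by 1.21 ± 0.22 in spleen and 0.77 in lung (adjusted p = 0.00101 and 0.0242). The lung call was lost without lung WT replicate 1, lung ∆Foxp3 replicate 2 or lung ∆Foxp3 replicate 3. Idh3a, a subunit of isocitrate dehydrogenase, rose by 0.82 and 0.99 (adjusted p = 0.013 and 0.00655), and the spleen call was lost without spleen WT replicate 2 or 3 or spleen ∆Foxp3 replicate 2. Cs, citrate synthase, rose by 0.66 in spleen (adjusted p = 0.0117), a call lost without spleen ∆Foxp3 replicate 2. Among 8 carriers and porins, 2 rose in spleen and 4 in lung. Slc25a4, which exchanges ADP for ATP across the inner membrane, had 433, 563 and 370 CPM in spleen ∆Foxp3 libraries, against 241, 161 and 163 CPM in spleen WT. In lung it had 350, 385 and 449 CPM in ∆Foxp3 libraries, against 194, 188 and 229 CPM in WT. All ∆Foxp3 values were above all WT values, with 1.27 ± 0.19 and 0.95 ± 0.19 (adjusted p = 0.000236 and 0.00308). Its paralog Slc25a5 rose by 0.88 and 0.69 (adjusted p = 0.00109 and 0.00786). Of 19 import genes, 1 rose in spleen and 5 in lung, and Timm50, a receptor of the inner membrane translocase, rose by 0.96 ± 0.22 and 1.03 (adjusted p = 0.00434 and 0.00399).

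Assembly factors build the complexes and are not part of them. Of 20 complex IV assembly genes, 3 rose in spleen (15.0%) and 2 in lung (10.0%), close to the shares of all genes. Cox15, which makes heme A for complex IV, had 29.5, 26.6 and 34.0 CPM in spleen ∆Foxp3 libraries, against 15.4, 13.9 and 13.1 CPM in spleen WT. It rose there by 1.09 ± 0.22 (adjusted p = 0.00251) without overlap. Cox10, which acts just before it in the same synthesis, had 38.5, 50.9 and 66.8 CPM in lung ∆Foxp3 libraries, against 27.3, 26.7 and 23.4 CPM in lung WT. It rose in lung by 1.01 ± 0.24 (adjusted p = 0.00764), and its groups did not overlap. Of 6 complex III assembly genes none was called by edgeR, with 0 at an unadjusted p under 0.05 in spleen and 1 in lung, 0 by DESeq2 in each tissue, and 0 in spleen and 1 in lung by limma. Of 3 ATP synthase assembly genes none was called by edgeR, with 0 at an unadjusted p under 0.05 in each tissue, 0 by DESeq2 in each tissue, and 1 by limma in spleen and 0 in lung. Of 7 further complex I assembly genes, Tmem126b fell in spleen by 0.79 (adjusted p = 0.0371) and none was called in lung, where 1 had an unadjusted p under 0.05 and DESeq2 and limma each called 1 lower. Of 13 genes of mitochondrial DNA transcription and replication, 1 fell in spleen, and 1 rose and 1 fell in lung. Polg2, an accessory subunit of the mitochondrial DNA polymerase, fell by 0.79 in spleen and 0.73 in lung (adjusted p = 0.025 and 0.0421), and Lrpprc, which stabilises mitochondrial mRNAs, rose by 0.66 in lung (adjusted p = 0.0468). The Polg2 call in spleen was lost without spleen WT replicate 2 or 3 or spleen ∆Foxp3 replicate 2. Left out singly, all libraries but spleen ∆Foxp3 replicate 2 and lung WT replicates 1 and 3 ended the Tmem126b call. Likewise all but spleen WT replicate 1, spleen ∆Foxp3 replicates 2 and 3 and lung WT replicate 3 ended the lung call of Polg2. That of Lrpprc was lost without spleen WT replicate 2, lung WT replicate 1 or 2, or any lung ∆Foxp3 replicate.

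Of 8 transcriptional regulators of mitochondrial genes, 2 rose and 1 fell in spleen. Gabpa, the DNA-binding subunit of GABP, had 56.4, 53.0 and 44.8 CPM in spleen ∆Foxp3 libraries, against 24.3, 23.4 and 27.6 CPM in spleen WT. It rose by 1.03 ± 0.22 (adjusted p = 0.00352) and held without each library. Its lung levels were 59.5, 52.7 and 44.0 CPM in ∆Foxp3 libraries and 29.9, 35.2 and 52.4 CPM in WT libraries, which overlapped (0.41, adjusted p = 0.217). Gabpa exons overlap 397 exon bases of the member Atp5j on the opposite strand, and reads there cannot be told apart without strand. Nrf1, the gene of nuclear respiratory factor 1, rose by 0.39 ± 0.14 in spleen (adjusted p = 0.0489), a call lost without any single spleen WT replicate, spleen ∆Foxp3 replicate 1 or 2, or lung WT replicate 2. Myc, which promotes growth and mitochondrial biogenesis, had 159, 199 and 157 CPM in spleen ∆Foxp3 libraries, against 363, 279 and 221 CPM in spleen WT. It fell in spleen by 0.75 (adjusted p = 0.022), a call lost without spleen WT replicate 1, spleen ∆Foxp3 replicate 1 or spleen ∆Foxp3 replicate 3, and had 0.59 in lung (adjusted p = 0.0768). None of the 8 was called in lung by edgeR, with 1 at an unadjusted p under 0.05, 0 by DESeq2 and 1 by limma.

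The level of a member was also divided by kilobases of annotated exon, since counts grow with length. Exons were merged over all transcripts of a gene, which can be far longer than any single transcript, so the resulting order is uncertain. Atp5l had 6443 exon bases but 507 distinct 38-base windows in its longest protein-coding transcript, and Atp5b had 4237 and 1879. Among the 80 members with an annotated length, Cox4i1 had the highest mean in spleen WT cells at 407 CPM per kilobase, before Cox6b1 at 334, Cox8a at 329 and Atp5a1 at 317, and Cox6b2 the lowest at 0.823. In spleen ∆Foxp3 cells the same genes had 465, 402, 480, 452 and 2.57 CPM per kilobase. Many members have processed copies elsewhere in the genome, and how reads that fit several places were counted is not given. Of the 80 members matched to GENCODE M21 (GRCm38), 54 had some 38-base window in common with another gene, and the median share of such windows was 4.12%. Atp5l, Atp5h and Uqcrb had over 50% of windows shared (85.2%, 55.0% and 52.6%), and their values are uncertain. Of the genes named above, Ndufa10 and Ndufv1 shared 0% and Ndufaf4 0.64%. Cox5a shared 41.0% with exon overlap of Gm26631 among the sources, Cox5b 29.8%, Ndufb9 24.7% and Cox7a2l 19.7%. Others named with such sharing included Ndufs3 at 48.4%, Ndufb6 at 35.4%, Cox7c at 29.2%, Ndufa12 at 28.2% and Uqcrc2 at 25.3%. For Ndufb6, 39.0% of exon bases overlap Smim27 on the opposite strand, so its lung call is uncertain.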

How the data were processed

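RNA from 12 libraries of sorted mouse Treg was measured by Smart-seq2, per the labels' protocols: oligo(dT) priming, Nextera XT tagmentation, which does not mark strand, and no molecular identifiers. The authors deposited 1 table of raw counts per gene symbol; the submitters' processing notes name STAR 2.7.3a, featureCounts of Subread 2.0.0 and mm10, and no source used here gives its annotation or strand setting. Without strand, reads of a gene and an antisense partner cannot be told apart. Groups were taken from the labels. Members and related lists were chosen with earlier results of these data known.

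Counts were fitted with edgeR 4.0.16 (R 4.3.3): TMM factors, filterByExpr, 4 groups in 1 fit, the robust quasi-likelihood F test, two-sided, and Benjamini-Hochberg adjustment over all 13295 genes tested, with a call at an adjusted p under 0.05. CPM are TMM-normalised. Each ± without another label is an SE on the log2 scale. The floor of 3 counts was 0.332 to 0.758 CPM per library, and floors cover counting error only. The text names core subunits, the members of smallest adjusted p in each comparison, paralog sets, and called genes of related lists; the other members named, such as Ndufa8, Ndufc2, Uqcrh and Ndufaf2, were chosen after their values were seen. Alternatives were DESeq2 1.42.0, limma 3.58.1 with voom and quality weights, other scaling, filters and library sets, and a replicate block. The test was checked on simulated data. Gene coordinates come from GENCODE M21 (80 of 82 members matched), and promoter windows from RefSeq (70 matched). A result that rests on a withheld item is not reported here.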

Additional observations from a re-analysis of the deposited data

Results flagged for a closer look

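Among the genes named here, Kif11, Ccna2 and Mki67, all of the proliferation list, passed the test that the genotype difference differed between tissues, and no respiratory chain member did. The lung genotype difference minus the spleen genotype difference was -3.08 ± 0.40 (SE) on the log2 scale for Kif11, a mitotic motor (adjusted p = 0.00267, edgeR). It was -2.58 ± 0.40 for Ccna2, cyclin A (adjusted p = 0.00741), and -2.50 ± 0.46 for Mki67 (adjusted p = 0.021).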

How the results depend on the processing

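The number of members called higher in spleen ∆Foxp3 cells, 23 by edgeR, was 39 with limma, 4 when only the groups compared were fitted, 19 with the replicate block, 16 with no filter on low counts, 34 without spleen WT 1, lung WT 1 and lung ∆Foxp3 3 together, and 4 to 39 without 1 library. In lung the 14 became 45 with limma, 32 with only the groups compared, 9 with the replicate block, 5 without the 3 libraries and 4 to 31 without 1 library. The 1 member called lower was 3 with no TMM, 2 with a minimum of 10 CPM, 0 with only the groups compared and 0 without the 3 libraries in spleen, 0 without them in lung, and 0 to 1 without 1 library in each tissue. The 2 lower in lung WT were 1 with RLE factors, 4 with no TMM, 0 with only the groups compared, 0 with the replicate block, 1 without mt- and ribosomal protein rows, 0 without the 3 libraries and 0 to 2 without 1 library. No member was called higher in lung WT, in either direction in ∆Foxp3 cells of lung against spleen, or in the interaction under any alternative run; the interaction has no value for only the groups compared.

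In spleen, median log2 fold changes without the 3 libraries were 0.44 for complex I, 0.37 for its assembly factors, 0.63 for complex III, 0.58 for complex IV and 0.56 for complex V (0.49 with limma). Without 1 library they were 0.11 to 0.44, -0.0101 to 0.37, 0.29 to 0.63, 0.20 to 0.58 and 0.19 to 0.56, and the lung median of the assembly factors was 0.54 to 0.85. Signs turned for Cox7c in spleen (0.10 with limma, 0.23 without the 3 libraries, -0.18 to 0.23 without 1), mt-Co2 in lung (-0.0472 without the 3), Foxred1 in lung (-0.18, and -0.11 to 0.21) and Atpaf2 in lung (0.10, and -0.22 to 0.0496). Without 1 library, lung values ran from -0.0404 to 0.28 for Uqcc1, -0.19 to 0.78 for Cox6b2, -0.0382 to 0.21 for Acad9, -0.47 to 0.0598 for mt-Nd2 and -0.33 to 0.0683 for mt-Nd4. Of 24 spleen calls, 4 held under every alternative and without each library (Ndufa10, Cox5a, Cox5b and Ndufb9), and 3 of 15 lung calls did (Ndufa10, Cox5a and Ndufaf4). The cause of these changes was not tested. Same-numbered libraries showed little correlation across groups, from -0.0766 to 0.0871 over 18 pairs, and 4 of 12 libraries correlated best with their own number. These values cannot show whether same-numbered libraries came from the same mouse, since deviations within groups may be technical.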
